A study of Mus musculus with 6 samples.

Results

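The cathepsin proteases are lysosomal enzymes that cut proteins delivered by endocytosis and autophagy, and some are also secreted. Of the 53465 genes in the table, 10 were taken by symbol: Ctsb, Ctsc, Ctsd, Ctsf, Ctsh, Ctsk, Ctsl, Ctso, Ctss and Ctsz. All 10 were found, and 7 of them passed the filter on low counts and were tested. The libraries came from 4T1, a mouse mammary carcinoma line, made resistant in vivo by axitinib, given at 100 mg/kg/day; this drug blocks VEGF receptor kinases. Cells from lesions that followed surgery were then cultured with 0.5 µM axitinib. They were stained with the fluorescent β-galactosidase substrate C12FDG and sorted into SA-β-galHi (SM positive, 3 libraries) and SA-β-galLo (SM negative, 3 libraries) fractions. Both fractions therefore share the line, the resistance and the drug, and no untreated or drug-sensitive library enters the comparison.

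Cathepsins are made as inactive precursors. Most are tagged with mannose-6-phosphate, carried to the lysosome by mannose-6-phosphate receptors and matured there by removal of a propeptide. Cathepsin D is an aspartic protease, and the other members are cysteine proteases of the papain family, held in check by cystatins. A larger lysosomal compartment with more lysosomal β-galactosidase is a common trait of senescent cells, and the sort on β-galactosidase signal uses that trait.

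The fractions differed by little in cathepsin mRNA, and the members did not move in 1 direction. Ctsd, Ctsh and Ctso stood 12.9%, 14.8% and 21.25% higher in SM positive cells, Ctsl and Ctsc stood lower (log2 changes of -0.14 and -0.18), and Ctsb and Ctsz lay within 0.03 of 0 on the log2 scale. None of the 7 passed an adjusted p of 0.05 in edgeR's quasi-likelihood test, against 1.35% of all genes tested (1.14% higher and 0.214% lower in SM positive cells). At an unadjusted p under 0.05 there were 3, against 13.6% of all genes, and DESeq2, which called 2.38% of all genes, and limma-voom, which called 0.976%, called 0 of the 7. With the replicate number as a block, 4 of the 7 passed, Ctsd, Ctsh and Ctso higher and Ctsl lower, against 14.1% of all genes (8.52% higher and 5.6% lower). The block changed the fitted differences by less than 0.01 and made their standard errors smaller. The 4 calls in the blocked fit became 1 without pair 1 (Ctso, against 5.03% of all genes), 1 without pair 3 (Ctsh, against 6.23%) and 2 with DESeq2 (Ctsd and Ctsl, against 4.36%). They stayed 4 without pair 2 (against 12.6%). All 4 passed with limma-voom in the blocked fit, against 11.3% of all genes. The median log2 change of the 7 was 0.0001, and that of all 14038 genes tested was -0.0008.

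Library totals ran from 18733801 to 26533528 counts. Levels are given as CPM (counts scaled to library size, with TMM factors), with mean ± SD over n = 3 libraries a fraction. Levels of different cathepsin genes are compared as CPM per kb of annotated exon. The sums over marker lists and the choice of which list genes to name used CPM, which does not correct for length. The labels do not say whether replicates came from separate cultures or sorts. The p-values therefore measure only how far these libraries differ, and that spread may be technical. In such bulk libraries, a difference in the share of cells that make a transcript and a difference in transcript per cell cannot be told apart.

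**Figure D1:**
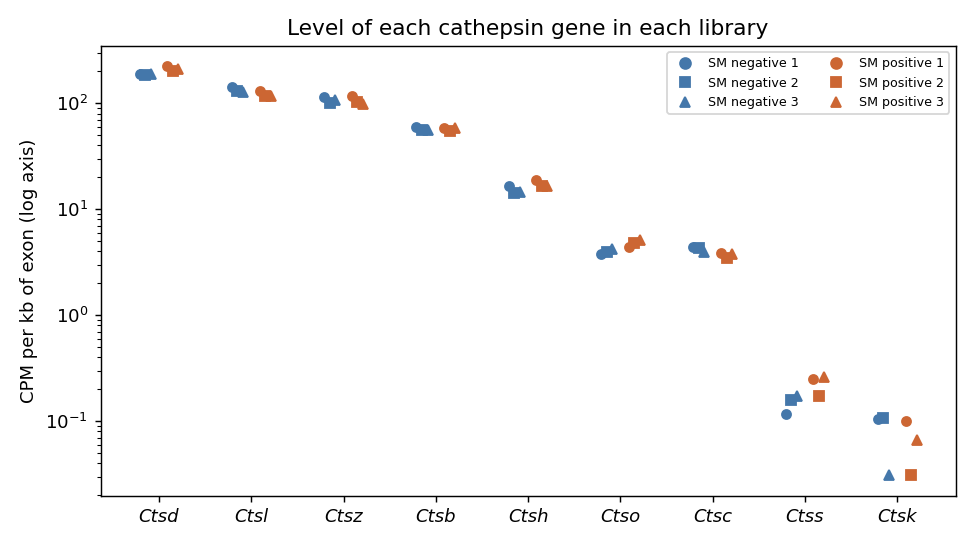
CPM per kb of annotated exon (log axis) for 9 cathepsin genes in each of the 6 libraries, blue for SM negative and orange for SM positive, with marker shape giving the replicate number. Ctsf, at 0 counts in every library, is left out. Ctsd, Ctsl, Ctsz and Ctsb lie above 50 in every library, while Ctss and Ctsk lie below 0.3.

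Per kb of exon, Ctsd was the most abundant member, at 199.9 CPM per kb over the 6 libraries. Ctsl followed at 127 and Ctsz at 107, and the ranges of that pair touched (116 to 142 and 98.8 to 116). Ctsb stood at 57.3 and Ctsh at 16.2 CPM per kb, each apart from its neighbours in all libraries. Ctso and Ctsc, at 4.37 and 3.97 CPM per kb, overlapped, and their order turned when the longest transcript replaced the union of exons as the length (6.46 and 7.15). Ctss and Ctsk lay far below, at 0.189 and 0.0733 CPM per kb. The 10 genes took 0.192% ± 0.00694 of counts in SM negative and 0.191% ± 0.0115 in SM positive libraries, so the family's total differed by less than its spread between replicates.

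The aspartic protease gene Ctsd (ENSMUSG00000007891.16, GRCm38 chromosome 7, 142375911 to 142388038, minus strand) encodes one of the main endopeptidases of the lysosome. It stood at 447, 431 and 447 CPM in SM negative replicates 1, 2 and 3 and at 524, 471 and 500.2 CPM in SM positive replicates 1, 2 and 3. All 3 SM positive libraries were above all 3 SM negative ones. Ctsd and Ctso were the 2 members with this pattern, which 10.4% of all genes tested shared. Counting both directions, 3 members did not overlap, against 19.9% of all genes. The log2 change of Ctsd was 0.18 ± 0.055 (SE; edgeR adjusted p = 0.189). With the replicate block it was 0.17 ± 0.0396 (SE; edgeR adjusted p = 0.00521), with increases of 17.3%, 9.39% and 11.95% within pairs 1, 2 and 3. The blocked call ended without pair 1 (adjusted p = 0.157) and without pair 3 (adjusted p = 0.0582).

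Ctsd shares exon sequence with Gm49369, a coding gene model that overlaps it on the same strand and reaches beyond it. Of the 31-base stretches of Ctsd transcripts, 33.2% also occur in Gm49369, so the division of reads between these genes is uncertain. Gm49369 stood at 42.5, 47.8 and 42.6 CPM in SM negative and at 61.8, 55.1 and 57.3 CPM in SM positive libraries. That rise passed the test without the block (log2 change 0.39 ± 0.0727 SE, edgeR adjusted p = 0.0311) and with it (0.40 ± 0.0575 SE, edgeR adjusted p = 0.000166). In fits without the block, each single library, when left out, ended the call (adjusted p between 0.0507 and 0.142). With the counts of both genes added together, the log2 change was 0.20 ± 0.0544 (SE; edgeR adjusted p = 0.14, and adjusted p = 0.00239 with the block).

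The promoter of Ctsd is shown because it holds CACGTG, the E-box bound by MiT/TFE factors and other helix-loop-helix proteins, at 2 places. RefSeq promoters (GRCm38.p6, 250 bases before to 50 after the start) were at hand for 8 of the 10 members, all but Ctsb and Ctsh. Both strands were searched, and CACGTG is its own reverse complement. Of these 8, Ctsd, Ctsf and Ctsl hold the E-box, as do 7.15% of 32851 promoters in the table. The 4 matches are printed in 30-base windows on the gene's strand, with the E-box in capitals. Distances are from the RefSeq start, which for Ctsd and Ctsl lies inside the GENCODE span printed with the gene. The Ctsl window and the Ctsd window at 98 bases therefore fall within those spans.
Ctsd, chr7:142388048-142388077, minus strand, E-box from 245 bases before the start: tccccCACGTGacctgtatccagtcattct
Ctsd, chr7:142387908-142387937, minus strand, E-box from 98 bases before the start: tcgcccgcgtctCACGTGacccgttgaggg
Ctsl, chr13:64370739-64370768, minus strand, E-box from 236 bases before the start: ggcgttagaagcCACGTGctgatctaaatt
Ctsf, chr19:4855074-4855103, plus strand, E-box from 79 bases before the start: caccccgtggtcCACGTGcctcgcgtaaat
The longer core TCACGTGA of the lysosomal CLEAR element, which contains the E-box, occurs in 0.974% of promoters and among the members in the Ctsd window at 98 bases. In the blocked fit Ctsd was higher and Ctsl lower in SM positive cells, and Ctsf had no counts. Binding at these sites, and any part of it in these values, was not tested.

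Among the cysteine endopeptidases, Ctsl (ENSMUSG00000021477.9, chromosome 13, 64359337 to 64370890, minus strand) encodes cathepsin L, a strong endopeptidase. Its levels were 919, 844 and 831 CPM in SM negative replicates 1 to 3 and 846, 753.5 and 759.5 CPM in SM positive replicates 1 to 3. The fractions overlapped, because SM positive replicate 1 lay above SM negative replicates 2 and 3, yet each SM positive library was below the SM negative library with its own number. The log2 change was -0.14 ± 0.0639 (SE; edgeR adjusted p = 0.381), and with the block -0.14 ± 0.0397 (SE; edgeR adjusted p = 0.0242). Within pairs the log2 changes were -0.12, -0.16 and -0.13. The blocked call ended without pair 1 (adjusted p = 0.16) and without pair 3 (adjusted p = 0.162). Of the 31-base stretches in its transcripts, 28.2% are also found elsewhere, mostly in the antisense gene Gm47123 and the pseudogene Gm49230, and both of these had 0 counts in all libraries.

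Ctsl and Ctsd thus differed in opposite directions in the blocked fit. The ratio of Ctsl to Ctsd, both as CPM per kb of exon, was 0.745, 0.71 and 0.673 in SM negative replicates 1 to 3 and 0.585, 0.579 and 0.55 in SM positive replicates 1 to 3. The fractions did not overlap in this ratio. Ctsd made up 36.9% ± 1.02 of the family's summed CPM per kb in SM negative and 40.6% ± 0.831 in SM positive cells, and Ctsl 26.1% ± 0.656 and 23.2% ± 0.308. This ratio was chosen after the values were seen and was not tested.

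Ctss, Ctsk and Ctsf, 3 further cysteine protease genes, were nearly silent. Ctss, cathepsin S, which trims the MHC class II invariant chain in antigen-presenting cells, had 4, 4 and 5 counts in SM negative and 9, 5 and 7 counts in SM positive libraries. Summed over libraries and corrected for their totals, the ratio of SM positive to SM negative was 1.55 (95% Clopper-Pearson interval 0.74 to 3.37, counting error only). Ctsk, the collagen-degrading cathepsin of osteoclasts, had 4, 3 and 1 counts in SM negative and 4, 1 and 2 in SM positive libraries, a ratio of 0.839 (interval 0.259 to 2.65). These counts could not show a difference for either gene. Ctsf was at 0 counts throughout; the upper limit set by 3 counts is 0.113 to 0.16 CPM, depending on the library.

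Ctsb (ENSMUSG00000021939.8, chromosome 14, 63122462 to 63145923, plus strand) encodes cathepsin B, which acts both as an endopeptidase and as a carboxydipeptidase. It stood at 360.2, 339 and 340.3 CPM in SM negative and at 356, 333.5 and 351 CPM in SM positive replicates 1 to 3. The fractions overlapped and their means were equal, 347 ± 11.8 and 347 ± 11.7 CPM, with a log2 change of 0.0001 ± 0.0526 (SE; edgeR adjusted p = 1.0). The cholesterol synthesis gene Fdft1, at 196 and 201 CPM, overlaps Ctsb on the opposite strand, and 13.0% of the 31-base stretches of Ctsb are also found elsewhere. Whether counting used strand is unknown here, and reads of these 2 genes may not be separated.

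**Figure D2:**
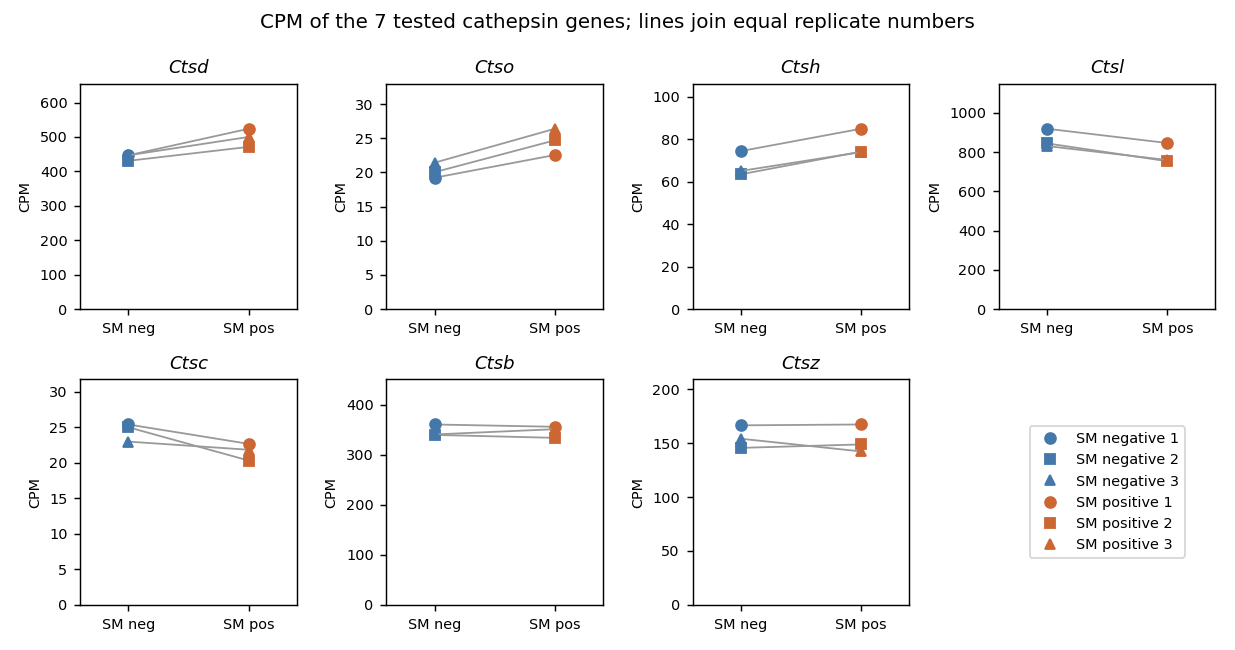
CPM of the 7 tested cathepsin genes in SM negative (left) and SM positive (right) libraries, 1 panel per gene with axes from 0; grey lines join libraries with the same replicate number. All 3 lines go up for Ctsd, Ctso and Ctsh and down for Ctsl and Ctsc, and the lines of Ctsb and Ctsz go both ways.

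The exopeptidase genes went different ways. Ctsh (ENSMUSG00000032359.14, chromosome 9, 90054152 to 90076089, plus strand) encodes cathepsin H, an aminopeptidase. It stood at 74.5, 63.5 and 65.1 CPM in SM negative and at 85.0, 74.3 and 74.0 CPM in SM positive replicates 1 to 3. SM negative replicate 1 lay within the SM positive range, but the increases within pairs were alike, at 14.2%, 16.9% and 13.7%. The log2 change was 0.20 ± 0.0798 (SE; edgeR adjusted p = 0.299), and with the block 0.20 ± 0.0429 (SE; edgeR adjusted p = 0.00346). The blocked call ended without pair 1 (adjusted p = 0.068) and with DESeq2 (adjusted p = 0.092).

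Ctsc (ENSMUSG00000030560.17, chromosome 7, 88278085 to 88310888, plus strand) encodes cathepsin C, the dipeptidyl peptidase that activates serine proteases of leukocyte granules. It stood at 25.4, 25.0 and 23.0 CPM in SM negative and at 22.7, 20.3 and 21.8 CPM in SM positive replicates 1 to 3. All SM positive libraries were below all SM negative ones, as in 9.47% of genes tested. The log2 change of -0.18 ± 0.0818 (SE) did not pass (edgeR adjusted p = 0.374, and adjusted p = 0.0763 with the block), and its pairs differed by -0.16, -0.30 and -0.07.

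Ctsz (ENSMUSG00000016256.10, chromosome 2, 174427493 to 174439039, minus strand) encodes cathepsin Z, also called cathepsin X, a carboxypeptidase. It stood at 166.5, 146 and 154 CPM in SM negative and at 167, 149 and 142 CPM in SM positive replicates 1 to 3. The fractions overlapped, 2 pairs were higher and 1 lower, and the log2 change was -0.02 ± 0.0733 (SE; edgeR adjusted p = 0.923). Nelfcd lies across part of it on the opposite strand.

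Ctso (ENSMUSG00000028015.3, chromosome 3, 81932601 to 81956725, plus strand) encodes cathepsin O, a little-studied papain-like protease, and it had the largest difference among the 7. It stood at 19.2, 20.0 and 21.4 CPM in SM negative and at 22.55, 24.7 and 26.4 CPM in SM positive replicates 1 to 3. The fractions did not overlap, and the increases within pairs were 17.3%, 23.3% and 23.2%. The log2 change was 0.28 ± 0.0877 (SE; edgeR adjusted p = 0.193), and with the block 0.28 ± 0.0637 (SE; edgeR adjusted p = 0.00579). The blocked call ended without pair 3 (adjusted p = 0.0679) and with DESeq2 (adjusted p = 0.218).

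The start region of Ctso is shown beside that of Ctss because both hold GAAA, any 2 bases and GAAA again, the core of elements bound by interferon regulatory factors. This motif was chosen after the sequences were seen. On either strand it occurs in 3.44% of the 32851 promoters and in 2 of the 8 of the members. In the 30-base windows below, capitals mark the motif; in Ctso, 2 overlapping matches run together.
Ctso, chr3:81932609-81932638, plus strand, from 15 bases after the start: gagccaaGAAACCGAAAGAGAAAgcgggcc
Ctss, chr3:95526755-95526784, plus strand, from 21 bases before the start: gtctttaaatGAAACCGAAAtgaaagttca
Ctso was among the members that passed in the blocked fit. Ctss, which holds the same 10-base stretch, had at most 9 counts in any library. Binding at these sites, and any part of it in these values, was not tested.

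**Figure D3:**
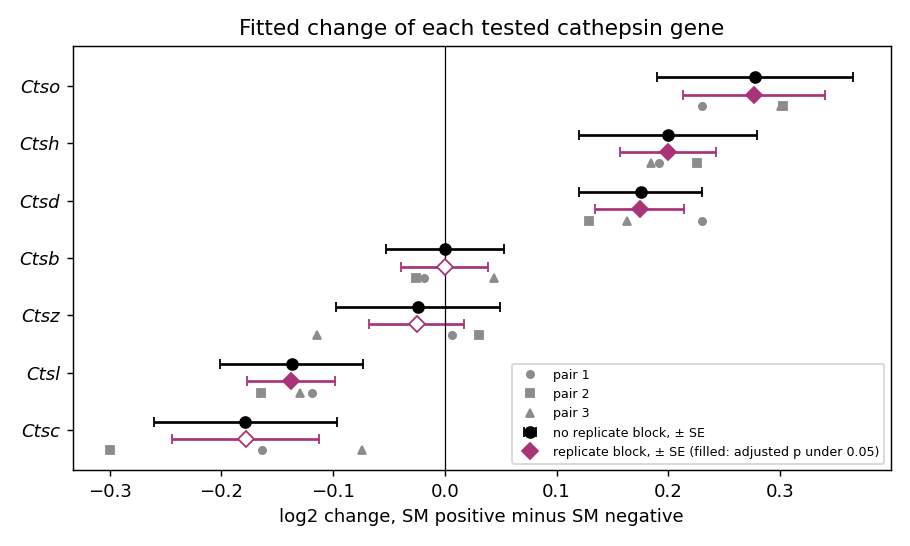
Fitted log2 change (SM positive minus SM negative) of the 7 tested cathepsin genes, without the block (black circles) and with it (diamonds, filled where the adjusted p was under 0.05), bars giving SE; grey symbols are the log2 ratios within each pair. The estimates coincide between the fits while the bars of the blocked fit are shorter, and the filled diamonds are Ctso, Ctsh, Ctsd and Ctsl.

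Of the 7 tested members, 3 were higher and 2 lower in SM positive cells within every pair, against 23.9% and 22.7% of all genes tested. To describe the patterns further, each gene's log2 CPM was taken relative to its own mean over the 6 libraries. Nearest to Ctsd among 9640 genes were the phosphatase gene Phlpp1, the lipid transporter gene Abca3 and Ergic1, a gene of the early secretory pathway. Their root-mean-square distances were 0.019, 0.0206 and 0.0213, against a spread of Ctsd around its own mean of 0.0991. Nearest to Ctsc were Dhx35, Gadd45gip1 and Stk11ip, at distances of 0.0256, 0.0287 and 0.0291 against a spread of 0.108. These genes were picked as the nearest of 9640 over only 6 libraries, so small distances follow from the choice. Shared regulation was not tested.

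Outside the 10 genes, the clearest difference in the pathway was in a receptor that sorts cathepsins. Igf2r encodes the cation-independent mannose-6-phosphate receptor, which carries tagged hydrolases to the lysosome and also binds IGF2. It stood at 132, 127 and 134 CPM in SM negative and at 159, 163 and 185 CPM in SM positive replicates 1 to 3, with no overlap. Igf2r rose with a log2 change of 0.37 ± 0.0653 (SE; edgeR adjusted p = 0.0267), and with the block the adjusted p was 7.88e-06. In fits without the block, the call ended without SM negative replicate 1, 2 or 3 (adjusted p = 0.0884, 0.123 and 0.0928) and without SM positive replicate 2 or 3 (adjusted p = 0.0536 and 0.0748). In the blocked fit the call stayed without pair 1, 2 or 3 (adjusted p = 0.000432, 0.000368 and 0.00127) and with DESeq2 (adjusted p = 3.86e-07).

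Igf2r was the 1 gene of 12 on the tagging and sorting list that passed without the block, and none fell. Of all genes tested, 1.35% passed without the block, and with it 8.52% were higher and 5.6% lower. With the block, Igf2r rose and Gga2 and Gga3, adaptors that load the receptors into transport vesicles, fell (log2 changes of -0.16 and -0.18, edgeR adjusted p = 0.0365 and 0.0296). Both of these calls ended with each pair left out and with limma-voom or DESeq2 in the blocked fit. The list's median log2 change was -0.03. The retromer gene Vps35, with the most CPM of the list but not per kb of exon, stood at 364 ± 13.9 and 362 ± 8.09 CPM.

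Of 18 cathepsin inhibitor genes, 5 were tested, 10 had no counts, and none passed without the block, against 1.35% of all genes tested. With the block, 2 rose, against 8.52% of all genes tested. Ctla2a, which encodes an inhibitor resembling a cathepsin propeptide, stood at 8.79 ± 0.177 and 11.5 ± 0.809 CPM (log2 change 0.39, edgeR adjusted p = 0.107, and adjusted p = 0.00768 with the block). Its blocked call ended without pair 3 (adjusted p = 0.0965) and with DESeq2 (adjusted p = 0.253). Cst3, the secreted cystatin C, stood at 111 ± 9.18 and 123 ± 9.87 CPM (log2 change 0.15, edgeR adjusted p = 0.454, and adjusted p = 0.0343 with the block). Its blocked call ended without pair 1 or 2, with DESeq2 and with limma-voom (adjusted p from 0.0566 to 0.31). The most abundant inhibitor gene, Cstb, the cytosolic cystatin B, stood at 166 ± 8.33 and 158 ± 6.79 CPM and did not pass in either fit. The list's median log2 change was 0.02.

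Of 7 other lysosomal peptidase genes, all were tested and none passed without the block, against 1.35% of all genes tested. With the block, the carboxypeptidase gene Cpq was higher (17.3 ± 0.546 and 20.6 ± 1.26 CPM, edgeR adjusted p = 0.0168) and the dipeptidyl peptidase gene Dpp7 lower (5.94 ± 0.33 and 4.24 ± 0.277 CPM, edgeR adjusted p = 0.0161). Of all genes tested, 8.52% were higher and 5.6% lower with the block. The Cpq call ended without pair 1 or 3 (adjusted p = 0.124 and 0.129) and with DESeq2 (0.372). The Dpp7 call ended without each pair in turn (adjusted p from 0.0556 to 0.154) and with DESeq2 (0.34). Scpep1, the most abundant of the list, stood at 167 ± 5.25 and 155 ± 4.38 CPM and did not pass in either fit. The list's median log2 change was 0.04.

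Of 13 other cathepsin genes, 9 had no counts and 2 were tested, Ctsa and Ctsw (median log2 change -0.01). Neither passed with or without the block, against 14.1% and 1.35% of all genes tested. Ctsa, the serine carboxypeptidase that protects β-galactosidase in the lysosome, stood at 86.7 ± 2.57 and 87.1 ± 3.23 CPM. The 3 tested MiT/TFE factor genes, Tfeb, Tfe3 and Mitf, did not pass in either fit (median log2 change 0.05), and Tfec had no counts. Tfe3, the most abundant, stood at 68.1 ± 1.97 and 69.9 ± 2.2 CPM. Glb1, the lysosomal β-galactosidase gene, stood at 40.8 ± 2.65 and 43.2 ± 2.18 CPM (log2 change 0.08, edgeR adjusted p = 0.682, and adjusted p = 0.291 with the block).

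**Figure D4:**
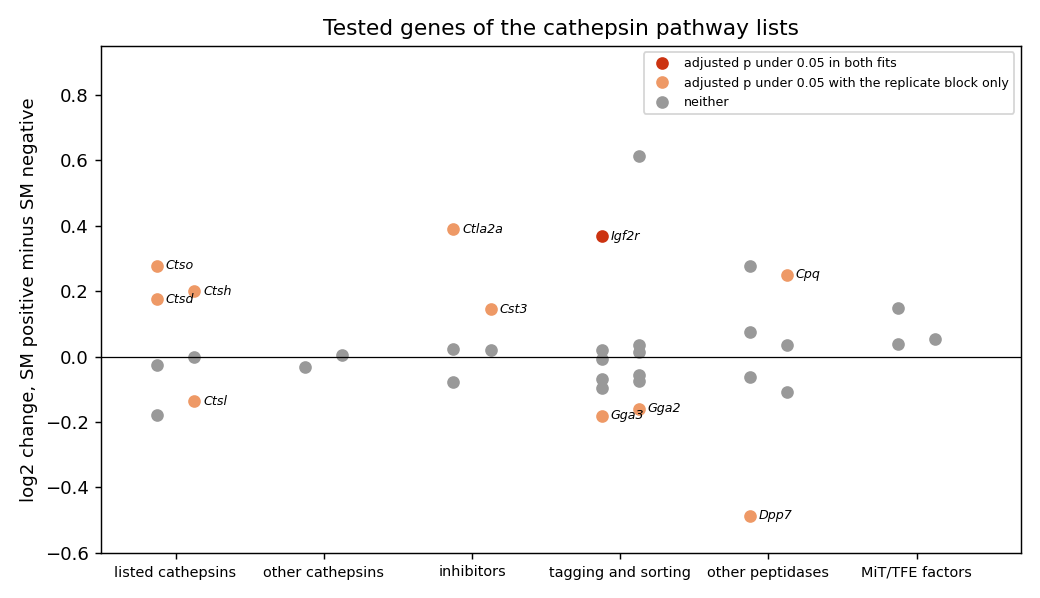
Log2 change (SM positive minus SM negative, no block) of every tested gene of the cathepsin pathway lists, 1 column per list; named genes passed with the replicate block, and red marks the gene that passed in both fits. Igf2r, at 0.37, is the red point, and the listed cathepsins spread on both sides of 0.

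Because leukocytes, osteoclasts and fibroblasts are rich in some cathepsins, their markers were read in the same libraries. The libraries carried several keratins of a simple epithelium: Krt7 stood at 1386 ± 15.2 and 1314 ± 79.3 CPM, Krt18 at 1056 ± 33.4 and 984 ± 62.2, and Krt8 at 1006 ± 22.9 and 948 ± 54.6. Of the other listed keratins, Krt14 stood at 16.7 ± 1.73 and 18.1 ± 2.76 CPM. Krt19 stood at only 1.71 ± 0.445 and 0.917 ± 0.0401 CPM, and Krt5 had no counts. Cdh1 stood at 721 ± 37.0 and 748 ± 27.9 CPM and was higher in SM positive cells within all 3 pairs. It passed in neither fit (log2 change 0.05, edgeR adjusted p = 0.756, and adjusted p = 0.424 with the block). Of 8 tested epithelial markers 2, Cdh1 and Krt14, had positive log2 changes. None of the 8 passed without the block, against 1.35% of all genes tested. With the block, Epcam, Krt19 and Cldn4 were lower (edgeR adjusted p = 0.0147, 0.0263 and 0.00727), against 5.6% of all genes tested. Each of these 3 calls ended without pair 1 (adjusted p = 0.179, 0.104 and 0.124) and without pair 3 (adjusted p = 0.11, 0.237 and 0.0764). The 9 listed epithelial markers summed to 4498 to 4715 CPM in SM negative and 4218 to 4539 CPM in SM positive libraries. Of 16 leukocyte markers, Adgre1, C1qa, C1qb and Tyrobp had no counts and 7 had at most 3 counts in any library. Their summed level, 26.8 to 36.4 and 28.9 to 36.7 CPM, was mostly Cd74 (30.5 ± 4.78 and 31.9 ± 3.88), while Csf1r stood at 0.316 ± 0.24 and 0.347 ± 0.207 and Lyz2 at 0.259 ± 0.0392 and 0.201 ± 0.0566. Of 5 osteoclast markers, Calcr and Ocstamp had no counts, and the sum of 23.3 to 26.0 and 23.4 to 26.8 CPM was almost all Acp5, a lysosomal phosphatase gene, and Oscar stood at 0.0692 ± 0.0823 and 0.0419 ± 0.0383.

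Of 8 fibroblast and pericyte markers, Lum and Thy1 had no counts, and the sums of 276 to 309.7 and 304 to 324 CPM were mostly Postn (290.0 ± 17.5 and 307 ± 9.13). All 4 tested markers had positive log2 changes (median 0.39, against -0.0008 for all genes tested), and none passed without the block. That median lay between Col1a2 (log2 change 0.37 ± 0.379 SE) and Col1a1 (0.41 ± 0.343 SE), both under 1 CPM in every library. Postn, which made up most of the sum, had a log2 change of 0.08 ± 0.0583 (SE). Pdgfra was higher with the block (3.55 ± 0.253 and 5.07 ± 1.11 CPM, edgeR adjusted p = 0.0423), as were 8.52% of all genes tested. The Pdgfra call ended without pair 1, 2 or 3 (adjusted p = 0.0852, 0.0563 and 0.427). The 5 endothelial markers summed to 0.279 to 0.427 CPM in SM negative and 0.0467 to 0.253 CPM in SM positive libraries, mostly from Pecam1 and Cdh5, with Emcn at 0. None of the 5 was tested. Pecam1 had at most 8 counts and Cdh5 at most 3 in any library, too few to show a difference. The part of these markers in the cathepsin differences was not tested.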

How the data were processed

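Polyadenylated RNA was sequenced from 6 libraries (3 per fraction), made with a stranded mRNA kit per the labels' protocols. The authors deposited expected counts (estimates that can be fractional). GRCm38, RSEM 1.3.1, STAR 2.6.0a and FastQC 0.11.5 are named, without role or order, per the submitters' processing notes. The annotation release and the strand setting were not given in the sources used here. Symbols and coordinates come from GENCODE M21 (GRCm38), which held 99.8% of the identifiers.

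Counts were rounded, filtered with filterByExpr, scaled by TMM and tested with edgeR 4.0.16 (R 4.3.3; quasi-likelihood F test, robust fit), with Benjamini-Hochberg adjustment over 14038 genes. Deviations from the fraction means correlated at 0.22, 0.28 and 0.196 between libraries of equal number, each above the minimum of 0.1, so the numbers were taken as pairs from the data; the labels do not say what they mark. The fit without the block is the main one, because the labels give no reason to block. The blocked fit is printed where it changes a call. Alternatives used DESeq2 1.42.0, limma-voom (limma 3.58.1), other scalings, filters and thresholds, and left out libraries or pairs. The scripts were tested on simulated data. Intervals and limits at 0 (3 counts) cover counting error only, since PCR copies are not independent molecules.

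The members, lists and tests were chosen with earlier results of these data known. The text names all 10 members and Glb1. From each pathway list it names the gene with the highest mean CPM (not per length) and up to 2 genes in each direction that passed in either fit at a mean of at least 1 CPM. From each cell type list it names the 2 genes with the highest mean CPM, likewise not per length. For the member with the smallest p in each direction it names the 3 genes with the nearest profile (mean of at least 5 CPM, distance on log2(CPM + 0.5)). Gm49369 and the other overlapping genes, Tfeb, Mitf, Ctsw, Epcam, Cdh1, Krt8, Krt14, Krt19, Cldn4, Lyz2, Col1a1 and Col1a2 were looked at outside that rule. So were markers at 0.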

Additional observations from a re-analysis of the deposited data

How the results depend on the processing

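Without the replicate block no member passed under any other scaling, filter, tool or threshold, or with any library left out; with the block 4 passed, also under limma-voom, library totals, RLE size factors and with Gm49369 added to Ctsd, and 2 with DESeq2. Among the members, pathway lists and markers, the block changed no call beside those given with the results. Leaving out a pair in the blocked fit gave 1 to 4 members. Over all genes, 190 passed in the main fit and 1982 with the block (1586 with limma-voom, 612 with DESeq2, 1961 with library totals, 1975 with RLE, 1981 with Gm49369 added). Without the block, 663 passed with no filter, 334 with DESeq2 and 33 at an adjusted p of 0.01. Leaving out libraries gave 25 to 123 genes, and leaving out pairs in the blocked fit gave 705, 1793 and 886 without pairs 1, 2 and 3. The members' median log2 change ran from -0.0208 to 0.0279 with a library left out.

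The members near 0, Ctsb and Ctsz, changed sign. Ctsb stood at -0.0011 with RLE, -0.00531 with the filter of more than 1 CPM, -0.00115 with DESeq2 and -1.56e-05 with limma-voom. With the block it stood at -0.00117 with DESeq2 and -0.00115 with RLE. With libraries left out it ran from -0.0208 to 0.0279, and in the blocked fit it was -0.0214 without pair 3. Ctsz ran from -0.097 to 0.0279 with libraries left out and was 0.0188 in the blocked fit without pair 3. The cause was not tested. With the longest transcript as length, the level was 73.1 CPM per kb for Ctsb, 7.15 for Ctsc, 221 for Ctsd, 26.5 for Ctsh and 6.46 for Ctso, because that length is shorter than the union of exons. Of 664 values of single genes under alternatives, 532 kept direction and side of the threshold, 107 gained a call, 11 lost one and 14 changed sign. Alternatives with DESeq2, limma-voom or another scaling in the blocked fit, and the addition of Gm49369 to Ctsd, were chosen after seeing the data. Depth limits Ctss, Ctsk and Ctsf, whose counts were too low to pass the filter. With no filter, Ctss and Ctsk were tested and did not pass. Their log2 changes were 0.61 ± 0.636 (SE; edgeR adjusted p = 0.713) and -0.25 ± 0.94 (SE; edgeR adjusted p = 0.946).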
